A study of Danio rerio with 6 samples.

Results

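Protocadherins are cell surface adhesion proteins of the cadherin superfamily, and the nervous system is where most of them are expressed. In vertebrates they fall into clustered genes, which stand in rows on the chromosome, and non-clustered genes, which stand alone. In a clustered row, each variable exon has its own promoter and is spliced to constant exons at the end of the row, and work in the mouse has shown that a neuron uses a small, varying set of these promoters, chosen with the help of the DNA-binding protein CTCF and of cohesin. The proteins bind to the same isoform on another cell and take part in self-recognition of neurites. Non-clustered members, mostly of the delta group, act in cell sorting, axon growth and synapse formation.

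All genes whose Ensembl name begins with pcdh, in either case, were taken, which gave 58 of the 32520 genes in the count files. A name of pcdh1 or pcdh2 followed by a letter marked 35 of them as clustered, and the other 23 were taken as non-clustered. The libraries were made from polyadenylated RNA of telencephalic hemispheres of adult zebrafish. There were 3 control hemispheres, without treatment, and 3 injured hemispheres, into which a syringe needle had been inserted, taken 5 days post lesion (dpl), with 1 library per hemisphere. The study used the uninjured contralateral hemisphere as its control, so that a control comes from an animal that had also been lesioned, and the genotype and strain are not given in the sources used here. For each library the authors deposited raw read counts per gene. They are given here as CPM, the counts scaled to a common total of reads on genes, after TMM normalization, a log2 fold change above 0 means a higher level after injury, and adjp is the Benjamini-Hochberg adjusted *p*-value of edgeR's quasi-likelihood test over all 22558 genes tested. CPM is not corrected for gene length, so levels are compared between libraries and not between genes. The labels do not name the animals. The study describes injury on a single side of the telencephalon and separate processing of each hemisphere, and it calls the samples of a condition biological replicates. The hemispheres of a condition are therefore taken as coming from separate animals. The *p*-values measure the spread between these samples only.

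Between 59675791 and 91663196 reads per library fell on genes, and 1.45% to 1.53% of all counts matched more than 1 gene and were assigned to none. The 10 neuronal markers that matched a gene summed to 4257 to 4356 CPM in control and 4063 to 4466 CPM in injured libraries, and none was at 0. Of these, 1 was called higher, *tubb5*, from 310 to 564 CPM, and 3 were called lower, *syn1*, *map2* and *RBFOX1*, by log2 fold changes of -0.25, -0.21 and -0.28, where 11.6% of all genes tested were called higher and 4.82% lower. Without *tubb5*, left out after its values were seen, the other 9 summed to 3948 to 4028 CPM in control and 3541 to 3797 CPM in injured libraries. The conditions did not overlap in this sum after TMM, but did with library size alone. Radial glia markers summed to 381 to 436 and 582 to 767 CPM, and oligodendrocyte markers to 525 to 671 and 725 to 948 CPM. Injured replicates 1 and 3 held 201 and 452 CPM of 17 pineal and photoreceptor markers, against 21.1 CPM in injured replicate 2 and 17.9 to 21.6 CPM in control libraries. The microglia and leukocyte markers summed to 573 to 632 CPM in control and 1937 to 2377 CPM in injured libraries, with 13 of 14 tested members called higher and 1 of the 15 matched at 0. Meninges and fibroblast markers summed to 59.7 to 91.2 and 172 to 271 CPM, with 4 of 7 tested called higher. The part of all these markers in the protocadherin levels was not tested. In bulk RNA, fewer cells of a type and less RNA per cell cannot be told apart.

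In the model with condition alone, few protocadherin transcripts passed the test at 5 dpl. With the replicate number as a block, 29.8% of the tested members passed, against 36.1% of all genes, as given below. Of the 47 members that passed the filter on low counts, 1 was called, the non-clustered *pcdh11*, which was lower after injury (2.13% of those tested, against 16.5% of all genes tested). No clustered member was called by edgeR, where 3 of 24 had an unadjusted *p*-value below 0.05, all lower, against 30.5% of all genes in either direction and 12% in that one. The DESeq2 Wald test called 1 clustered and 2 non-clustered members, all lower, against 22.0% of all genes in either direction and 8.55% lower. The log2 fold change lay within 0.25 of 0 for 42 of the 47 members and for 66.5% of all genes tested. Most of the small differences pointed down, since 22 of 24 clustered and 16 of 23 non-clustered members had a log2 fold change below 0, against 50.7% of all genes. With library size alone in place of TMM, which moves all genes up by a median of 0.06, these counts were 19 of 24 (79.2%) and 11 of 23 (47.8%), against 39.0% of all genes. The median log2 fold change was -0.13 for clustered members, -0.05 for non-clustered members and -0.004 for all genes tested.

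**Figure D1:**
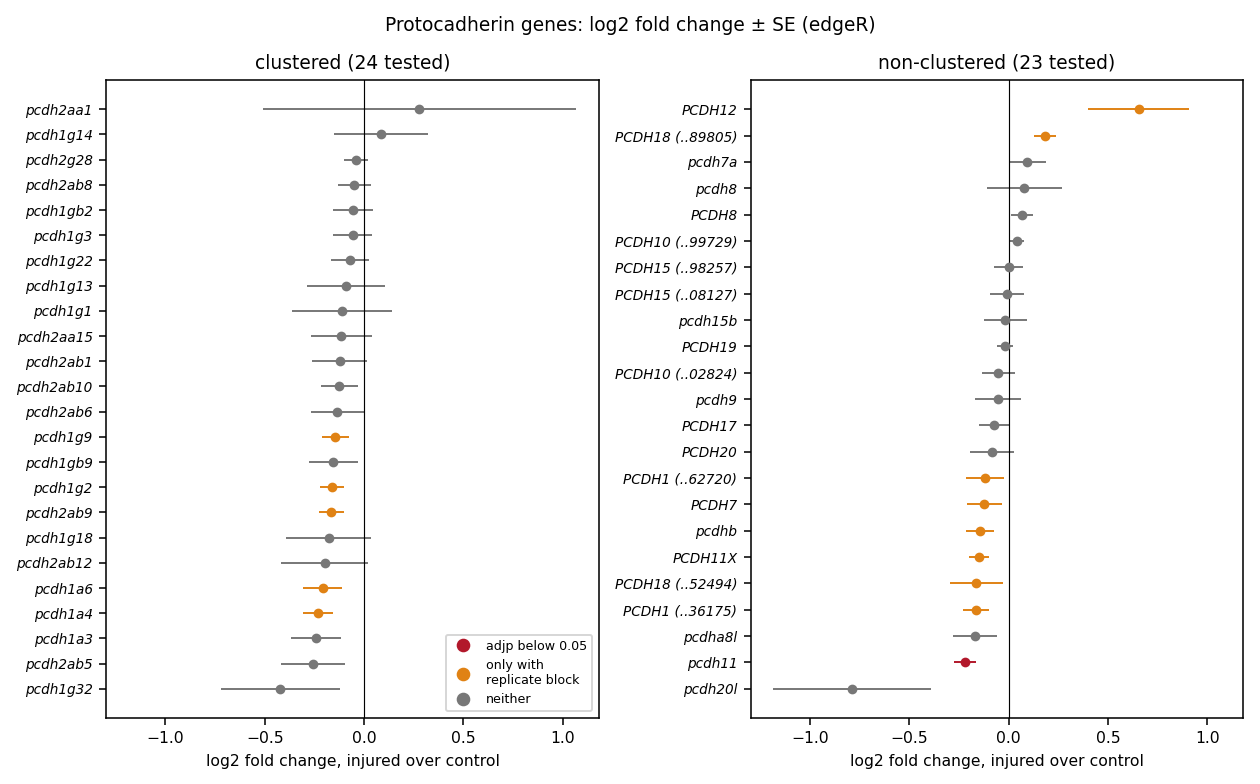
Log2 fold change of injured over control hemispheres (x axis) for the 47 tested protocadherin genes (y axis), in clustered genes at the left and non-clustered genes at the right. Points are edgeR estimates after TMM and bars their standard errors, red marks adjp below 0.05 and orange a call only with the replicate number in the model. Most points stand slightly left of 0, 22 of 24 clustered and 16 of 23 non-clustered genes, against 50.7% of all genes. With library size alone these counts are 19 of 24 and 11 of 23, against 39.0% of all genes.

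Libraries with the same replicate number resembled each other, and when edgeR took that number as a block 14 of the 47 members were called, 12 lower and 2 higher. This share of 29.8% compares with 36.1% of all genes in that model, of which 16.2% were lower and 19.9% higher, and the lower members made up 25.5%. By class, 5 of 24 clustered members were lower, and 7 of 23 non-clustered members were lower and 2 higher. The blocked model was fitted after TMM only. Whether its calls hold with library size alone, which moves all genes up by a median of 0.06, was not tested. Whether the 2 classes responded differently was not tested, since genes of a row are not replicates.

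The clustered genes named in the files belong to 4 rows. The names give 3 to pcdh1a, 18 to pcdh1g, 13 to pcdh2a and 1 to pcdh2g. In the RefSeq annotation of a later assembly, GRCz12tu, 27 of them are found by symbol. There 17 share 1 chromosome and 10 another, and all 15 gene models of the pcdh1g row, all 11 of the pcdh2a row and 11 of the 14 of the pcdh2g row share 1 end. Only 1 of the 14 pcdh2g symbols of RefSeq is a name in the count files, *pcdh2g28*, and its RefSeq model is among those that do not share the end. The gene models of the files are those of another build, and how their reads were divided where models overlap was not tested.

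Most reads of the clustered genes were assigned to 1 gene. *pcdh2g28* (ENSDARG00000098788) stood at 874, 866 and 810 CPM in control replicates 1 to 3 and at 861, 857 and 761 CPM in injured replicates 1 to 3. It held 78.8% to 81.5% of the reads of all clustered genes in a library. No other gene with a pcdh2g name was counted, and whether reads of other genes of that row fell on it was not tested. The conditions overlapped, and the log2 fold change was -0.04 (adjp = 0.712, SE 0.059). It turned to 0.02 with library size alone, and also without injured replicate 3, which had the lowest level.

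Without *pcdh2g28*, the clustered genes summed to 225, 212 and 217 CPM in control and 208, 195 and 191 CPM in injured replicates 1 to 3. The conditions did not overlap, with means of 218 ± 6.42 and 198 ± 8.84 CPM (SD, n = 3 each) and a log2 ratio of -0.14. For single genes, the conditions do not overlap for 35.8% of those tested, with the injured libraries lower for 15.5%. A share for sums of genes was not computed. The sums contain *pcdh2ab9*, *pcdh1g2*, *pcdh1g9* and *pcdh1a4*, given below as without overlap singly, and are not separate results from them. The pcdh1a row summed to 36.7 ± 2.64 CPM in control against 31.3 ± 2.00 CPM in injured hemispheres (SD, n = 3 each), the pcdh1g row to 99.8 ± 2.67 and 92.7 ± 2.25 CPM, and the pcdh2a row to 81.4 ± 2.93 and 73.9 ± 4.75 CPM. In all 3 rows the conditions did not overlap after TMM, whose factors were 0.978 to 0.985 in control and 1.015 to 1.023 in injured libraries. With library size alone, only the pcdh1a row stayed apart. The pcdh1g row, the pcdh2a row and the clustered sum without *pcdh2g28* then overlapped between conditions. With *pcdh2g28* included, the clustered sum was 1068 ± 37.1 CPM in control against 1024 ± 63.2 CPM in injured hemispheres (SD, n = 3 each), and the conditions overlapped. The non-clustered genes summed to 1331, 1312 and 1297 CPM in control and 1349, 1214 and 1223 CPM in injured replicates 1 to 3, and overlapped too.

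**Figure D2:**
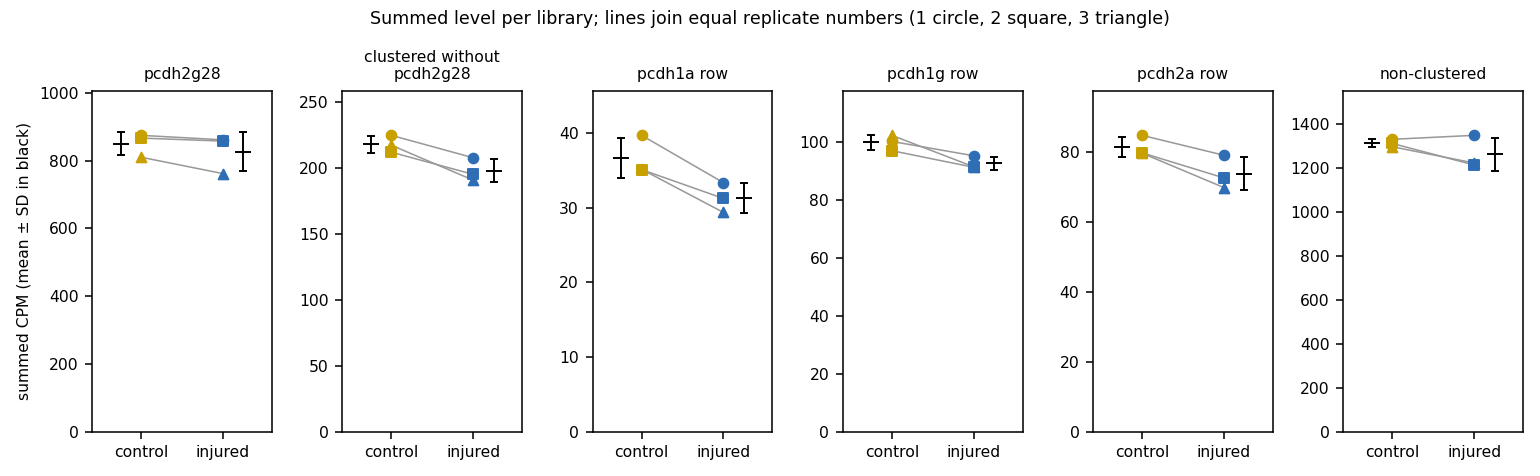
Summed CPM per library (y axes from 0, each with its own scale) in control and injured hemispheres for *pcdh2g28*, the other clustered genes, 3 of the clustered rows and the non-clustered genes. Each symbol is 1 library, lines join libraries with the same replicate number and black bars are the mean ± SD. After TMM the rows and the clustered genes without *pcdh2g28* are separated between conditions and the other panels overlap. With library size alone only the pcdh1a row stays separated.

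Among the clustered genes, the largest shares of reads after *pcdh2g28* were those of *pcdh2ab9*, *pcdh1g2*, *pcdh1g9* and *pcdh1a4*. Their libraries did not overlap between conditions, and none was past the threshold in edgeR. With library size alone, only *pcdh1a4* of them stayed apart. No other tested clustered gene was without overlap, so the share was 4 of 24 (16.7%), all lower, against 15.5% of all genes lower. Over the family, 7 of 47 tested members (14.9%) were without overlap and lower, and 2 were without overlap and higher. For all genes tested these shares were 15.5% and 20.3%. *pcdh2ab9* (ENSDARG00000101318), of the second alpha row, was at 31.3, 29.3 and 30.7 CPM in control and 29.0, 26.7 and 25.8 CPM in injured replicates 1 to 3. Its log2 fold change was -0.16 (SE 0.061, adjp = 0.116 and 0.0248 with the block). *pcdh1a4* (ENSDARG00000097170), of the first alpha row, had 22.3, 20.4 and 20.3 CPM in control and 19.1, 18.0 and 16.6 CPM in injured replicates 1 to 3. It was the clustered gene nearest to the threshold, at a log2 fold change of -0.23 (adjp = 0.0792, SE 0.075), and it passed with the block (adjp = 0.00825) and in the DESeq2 Wald test (adjusted *p* = 0.0336). With each library left out in turn its edgeR adjp was 0.0699 to 0.218.

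Among the genes of the first gamma row, *pcdh1g2* (ENSDARG00000101232) was at 20.9, 21.9 and 23.0 CPM in control and 18.9, 20.3 and 19.6 CPM in injured replicates 1 to 3, a log2 fold change of -0.16 with an SE of 0.062 (adjp = 0.128 and 0.0319 with the block). *pcdh1g9* (ENSDARG00000057519) was called in the blocked model only, with a log2 fold change of -0.14 in both models (adjp = 0.214 and 0.0368 with the block). The same held for *pcdh1a6* (ENSDARG00000104598), at -0.21 in both models (adjp = 0.202 and 0.0225 with the block). The third alpha gene, *pcdh1a3* (ENSDARG00000103602), had a log2 fold change of -0.24 but overlapped between conditions (adjp = 0.248). These were the 3 pcdh1a genes of the files, and their log2 fold changes lay between -0.24 and -0.21.

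The lowest and the highest fold changes of clustered genes were those of scarce transcripts. *pcdh1g32* (ENSDARG00000100829) had 11 to 25 reads per library and a log2 fold change of -0.42 (adjp = 0.406, SE 0.30). *pcdh2ab5* (ENSDARG00000090348) stood at -0.26 (adjp = 0.342, SE 0.16) and overlapped between conditions. *pcdh2aa1* (ENSDARG00000037695) had the largest positive estimate, 0.28, with an SE of 0.79 and 4 to 31 reads per library, and it turned negative without injured replicate 1 (-0.17) or control replicate 2 (-0.16). *pcdh1g14* (ENSDARG00000104057) was the only other tested clustered gene above 0 in edgeR with TMM, at 0.08 (adjp = 0.858, SE 0.24), and it was below 0 without the same libraries, at -0.16 and -0.08. A further 9 tested clustered genes lay between -0.18 (*pcdh1g18*) and -0.05 (*pcdh2ab8*), with an adjp from 0.430 (*pcdh2ab10*) to 0.770 (*pcdh1gb2*), and passed in neither model.

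Of the 35 clustered genes, 9 had no read in any library, namely *pcdh1g29*, *pcdh1g30*, *pcdh1g31*, *pcdh1g33*, *pcdh1gc5*, *pcdh1gc6*, *pcdh2ab3*, *pcdh2ab11* and *pcdh2ac*. A count of 0 allows up to 3 counts, or 0.0320 to 0.0514 CPM in these libraries, for reads that could be assigned to the gene, and this limit covers counting error only. A further 2 were below the filter, *pcdh1g26* with 6 reads in all and *pcdh2ab2* with 41. All 23 non-clustered genes were detected and tested.

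Of the 18 pcdh1g genes of the files, 14 have a place in the RefSeq order, and *pcdh1g33*, without reads, and *pcdh1g13*, *pcdh1g14* and *pcdh1g22*, with 5432, 2959 and 3088 reads, have none. Among the 14, the genes without reads were neighbours. In this order, the 7 genes of the files from *pcdh1g1* to *pcdh1g18*, far from the shared end, had 189 to 9585 reads in all. The next gene, *pcdh1g26*, had 6 reads, the 5 genes after it, *pcdh1gc5*, *pcdh1gc6*, *pcdh1g29*, *pcdh1g30* and *pcdh1g31*, had none, and *pcdh1g32*, nearest to the shared end, had 102. In the pcdh2a row, 9 of the 13 genes of the files have a place. *pcdh2ab1*, *pcdh2ab6* and *pcdh2ab8*, with 4005, 2528 and 3419 reads, and *pcdh2ab11*, without reads, have none. Among the 9, the gene nearest to the shared end, *pcdh2ac*, had no reads, while *pcdh2ab12* and *pcdh2ab10* beside it had 2584 and 3683. *pcdh2ab3*, also at 0, stood between *pcdh2ab2* with 41 and *pcdh2ab5* with 1478 reads. RefSeq also gives *pcdh1g26*, *pcdh1g18* and *pcdh1g9* as other names of further genes of the row, so the order of these 3 is uncertain. Whether reads of these genes were set aside because gene models overlap was not tested.

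**Figure D3:**
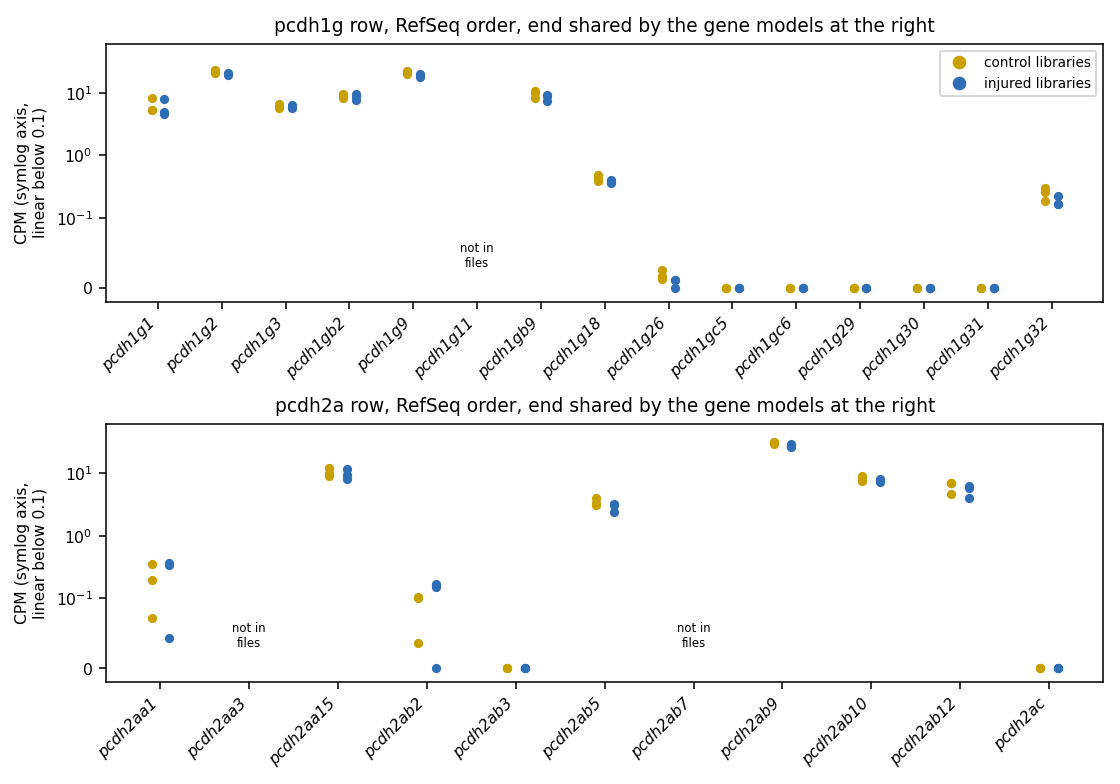
CPM (y axis, logarithmic above 0.1 and linear below) of the pcdh1g and pcdh2a genes in the order of the RefSeq annotation (x axis). The end that the gene models share is at the right. Genes of the files without a place in that order are not shown. Each point is 1 control or injured library, symbols marked as not in files are RefSeq names that the count files do not carry, and 5 neighbouring pcdh1g genes lie at 0 in all 6 libraries.

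Among the non-clustered genes, the delta-1 members are *PCDH1*, *PCDH7*, *pcdh9* and *PCDH11*, which share a cytoplasmic motif that binds protein phosphatase 1. *pcdh11* (ENSDARG00000105441) was at 45.9, 45.4 and 45.9 CPM in control and 40.9, 40.3 and 36.5 CPM in injured replicates 1 to 3. The 3 control libraries were close to each other, and each injured library lay below them. The log2 fold change was -0.22 (adjp = 0.0348, SE 0.055), and the adjp was 0.00797 with the block and 0.00454 in DESeq2. The adjp of *pcdh11* was 0.105, 0.0895 and 0.104 without control replicates 1, 2 and 3, 0.0691 and 0.0830 without injured replicates 2 and 3, and 0.0441 without injured replicate 1. The log2 fold change stayed between -0.26 and -0.17 with each of these libraries left out. With library size alone it was -0.16 (adjp = 0.0869). The second gene of this name, *PCDH11X* (ENSDARG00000098652), was at 78.4, 79.2 and 86.0 CPM in control and 75.7, 70.7 and 73.3 CPM in injured replicates 1 to 3. It also did not overlap, at a log2 fold change of -0.15 (adjp = 0.0972, SE 0.052), with 0.0247 in the blocked model and 0.0459 in DESeq2. With library size alone the conditions of *PCDH11X* overlapped.

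The delta-1 pair named *PCDH1* moved by similar amounts. ENSDARG00000036175 was at 67.3, 64.4 and 60.3 CPM in control and 61.6, 54.6 and 54.8 CPM in injured replicates 1 to 3, a log2 fold change of -0.17 (adjp = 0.136, SE 0.066). ENSDARG00000062720 was at 71.0, 70.1 and 60.6 CPM in control and 69.3, 61.5 and 54.9 CPM in injured replicates 1 to 3, a log2 fold change of -0.12 (adjp = 0.472, SE 0.097). Both overlapped between conditions. After TMM, both were lower in each injured library than in the control library of the same number, with an adjp of 0.00968 and 0.0414 in the blocked model. With library size alone, ENSDARG00000062720 was higher in injured replicate 1 than in control replicate 1. *PCDH7* (ENSDARG00000060610), known in Xenopus for ectodermal adhesion and axon growth, was at 127 ± 10.4 CPM in control against 117 ± 12.7 CPM in injured hemispheres (SD, n = 3 each), and had a log2 fold change of -0.12 (adjp = 0.418 and 0.0167 with the block). Its paralogue *pcdh7a* (ENSDARG00000078898) was at 55.3 ± 4.80 and 59.1 ± 5.97 CPM (SD, n = 3 each), with an estimate of 0.10 in the other direction that passed neither model (adjp = 0.551 and 0.0747 with the block). *pcdh9* (ENSDARG00000063264) was at 4.66 to 5.76 CPM over the 6 libraries and overlapped between conditions.

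The delta-2 members carry a cytoplasmic motif that recruits the WAVE complex, a regulator of actin. The largest read shares among them were those of *PCDH17*, *PCDH10* and *PCDH19*. *PCDH17* (ENSDARG00000027041), which acts in synapse assembly in the mouse and in axon growth, was at 260, 266 and 247 CPM in control and 274, 239 and 222 CPM in injured replicates 1 to 3, with overlap and a log2 fold change of -0.07 (adjp = 0.592, SE 0.077). *PCDH19* (ENSDARG00000034344), linked to epilepsy in humans and to neuronal columns of the optic tectum in zebrafish, was at 103, 103 and 105 CPM in control and 106, 100 and 102 CPM in injured replicates 1 to 3. The conditions overlapped, and the log2 fold change was -0.02 (adjp = 0.814, SE 0.039), or 0.04 with library size alone. The genes named *PCDH10*, which in the mouse is needed for axon pathways of the forebrain, were at 130 ± 1.68 and 134 ± 3.14 CPM (ENSDARG00000099729, log2 fold change 0.04, SE 0.037) and at 175 ± 8.74 and 169 ± 18.8 CPM (ENSDARG00000102824, log2 fold change -0.05, SE 0.083) in control and injured hemispheres (SD, n = 3 each). Neither passed in either model, and the sign of ENSDARG00000102824 turned without injured replicate 2 and with library size alone, to 0.03 and 0.004.

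The genes named *PCDH18*, whose mouse product binds the adaptor Dab1, went in opposite directions. ENSDARG00000089805 was at 33.1, 36.8 and 37.1 CPM in control and 40.6, 41.0 and 39.9 CPM in injured replicates 1 to 3. The injured libraries were all higher, as for 20.3% of genes tested in that direction, with a log2 fold change of 0.18 with an SE of 0.057 (adjp = 0.0713 and 0.0200 with the block). It passed with library size alone (0.24, adjp = 0.0327), and when only genes with a mean normalized count above 100 were tested (0.20, adjp = 0.0407). ENSDARG00000052494 was at 16.0, 14.5 and 12.1 CPM in control and 14.3, 12.9 and 10.8 CPM in injured replicates 1 to 3, with overlap and a log2 fold change of -0.16 with an SE of 0.13 (adjp = 0.481 and 0.0314 with the block). The blocked model called both, with opposite signs, and the difference between them was not tested.

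In zebrafish and Xenopus the name pcdh8 stands for the paraxial protocadherin of the early mesoderm. Of the genes so named, *PCDH8* (ENSDARG00000102185) was at 20.07 to 21.75 CPM in control and 21.78 to 22.24 CPM in injured libraries. The conditions were without overlap by this narrow margin only, and the estimate of 0.07 did not pass (adjp = 0.465, SE 0.055). *pcdh8* (ENSDARG00000006467) was below 1 CPM in each library. *PCDH20* (ENSDARG00000036424) was at 9.83 to 12.8 CPM over the 6 libraries. *pcdh20l* (ENSDARG00000101910) had the lowest estimate of the family, -0.79 (adjp = 0.233, SE 0.40), from 9, 13 and 11 reads in control and 4, 10 and 7 reads in injured replicates 1 to 3. In CPM the injured libraries lay below the control libraries, and the gene passed neither without nor with the block (adjp = 0.197).

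*PCDH12* and *PCDH15* are known from cells other than neurons. *PCDH12* (ENSDARG00000076594), an adhesion protein of endothelial cell junctions in mammals, was at 1.61, 2.44 and 2.42 CPM in control and 2.41, 4.37 and 3.44 CPM in injured replicates 1 to 3. Injured replicate 1 lay within the control range, while each injured library was above the control library of its number. The log2 fold change of 0.66 was the highest of the family (adjp = 0.130, SE 0.26), and 0.65 (adjp = 0.00514, SE 0.11) with the block. The endothelial and mural markers summed to 311 to 318 CPM in control and 396 to 429 CPM in injured libraries, with 8 of 15 tested called higher, against 11.6% of all genes, none lower and none at 0. Their part in the level of *PCDH12* was not tested.

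*PCDH15*, a part of the tip link of hair cells that photoreceptors also express, is listed under 3 genes. ENSDARG00000008127 was at 26.1 ± 1.03 CPM in control against 26.0 ± 2.95 CPM in injured hemispheres, and ENSDARG00000098257 at 19.1 ± 0.957 and 19.1 ± 1.33 CPM (SD, n = 3 each). *pcdh15b* (ENSDARG00000071772) was at 5.50, 6.29 and 5.92 CPM in control and 5.15, 6.26 and 6.12 CPM in injured replicates 1 to 3. In injured replicates 1 to 3, ENSDARG00000008127 was at 24.8, 23.8 and 29.4 CPM and ENSDARG00000098257 at 20.4, 17.7 and 19.4 CPM. In control replicates 1 to 3 they were at 24.94, 26.85 and 26.56 CPM and at 20.21, 18.37 and 18.85 CPM. Both were higher in injured replicates 1 and 3, which held the pineal and photoreceptor markers, than in injured replicate 2, while *pcdh15b* was not. Injured replicate 1 of ENSDARG00000008127 lay below all control libraries, and ENSDARG00000098257 was lowest at number 2 in control too. The part of these markers was not tested. The adjp of the 3 genes lay between 0.945 and 0.999.

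The names *pcdha8l* and *pcdhb* do not carry the row number and were taken as non-clustered. In RefSeq, *pcdha8l* lies within the span of *pcdh2aa1*, and 4 other genes start between that span and *pcdhb*. *pcdhb* (ENSDARG00000077023) was at 59.4, 55.1 and 55.2 CPM in control and 55.8, 50.8 and 47.1 CPM in injured replicates 1 to 3, with a log2 fold change of -0.14 with an SE of 0.070 (adjp = 0.218 and 0.0223 with the block). *pcdha8l* (ENSDARG00000099535) had a log2 fold change of -0.17 (adjp = 0.360, SE 0.11). Counted as clustered, they bring the clustered members to 37 and the median log2 fold change to -0.14. The calls in the blocked model become 6 of 26 (23.1%), all lower, against 16.2% of all genes called lower in that model.

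Several clustered genes differed more between replicate numbers than between conditions. *pcdh1g1* (ENSDARG00000104007) was at 8.18, 5.26 and 5.36 CPM in control and 7.79, 4.98 and 4.54 CPM in injured replicates 1 to 3. Both libraries numbered 1 stood above the other 4. *pcdh1g14* followed the same pattern, at 8.04, 4.77 and 6.08 CPM in control and 8.64, 5.54 and 5.78 CPM in injured replicates 1 to 3. So did *pcdh1g13* (ENSDARG00000098963), at 14.4, 9.81 and 12.7 CPM in control and 14.7, 9.31 and 10.6 CPM in injured replicates 1 to 3. *pcdh2ab12* (ENSDARG00000104080) was instead low in both libraries numbered 2, at 6.86, 4.59 and 6.93 CPM in control and 5.76, 3.97 and 6.31 CPM in injured replicates 1 to 3. The scarce *pcdh2aa1* was low there too, with 21, 6 and 15 reads in control and 31, 4 and 22 reads in injured replicates 1 to 3, and *pcdh2ab2*, below the filter, had 6, 3 and 8 and 13, 0 and 11 reads. *pcdh2aa15* (ENSDARG00000088136) was high in both libraries numbered 2, at 12.2 and 11.4 CPM against 8.15 to 10.0 CPM in the other 4. The log2 fold changes were -0.11 for *pcdh1g1* (adjp = 0.821), -0.09 for *pcdh1g13* (adjp = 0.813), -0.20 for *pcdh2ab12* (adjp = 0.613) and -0.11 for *pcdh2aa15* (adjp = 0.688). They were chosen because of these values.

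The 3 replicate numbers stood in the same order in control and injured hemispheres for 16 of 24 clustered members (66.7%), 9 of 23 non-clustered members (39.1%) and 37.0% of all genes tested. The range between the highest and the lowest replicate number, on the log2 scale after averaging both conditions, had a median of 0.25 for clustered members, 0.19 for non-clustered members and 0.21 for all genes tested. It was larger than the absolute log2 fold change for 19 of 24 clustered and 16 of 23 non-clustered members, against 58.0% of all genes tested. The range spans 3 numbers and the fold change 2 conditions, so the range tends to be larger even without any true difference. Deviations of a control library and of the injured library with the same number from their condition means correlated over the 72 pairs of the 24 clustered genes at a Pearson's r of 0.89 (Spearman's rho 0.85), and over the 69 pairs of the 23 non-clustered genes at 0.71 (rho 0.63). Genes of a library share its depth and composition and are not independent, and the deviations of a gene within a condition cancel out. These values are descriptions. With the block, the SE of *pcdh1g1* fell from 0.25 to 0.073, that of *pcdh1g14* from 0.24 to 0.078 and that of *pcdh1g13* from 0.20 to 0.066, and none of the 3 was called (adjp = 0.227, 0.451 and 0.284).

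**Figure D4:**
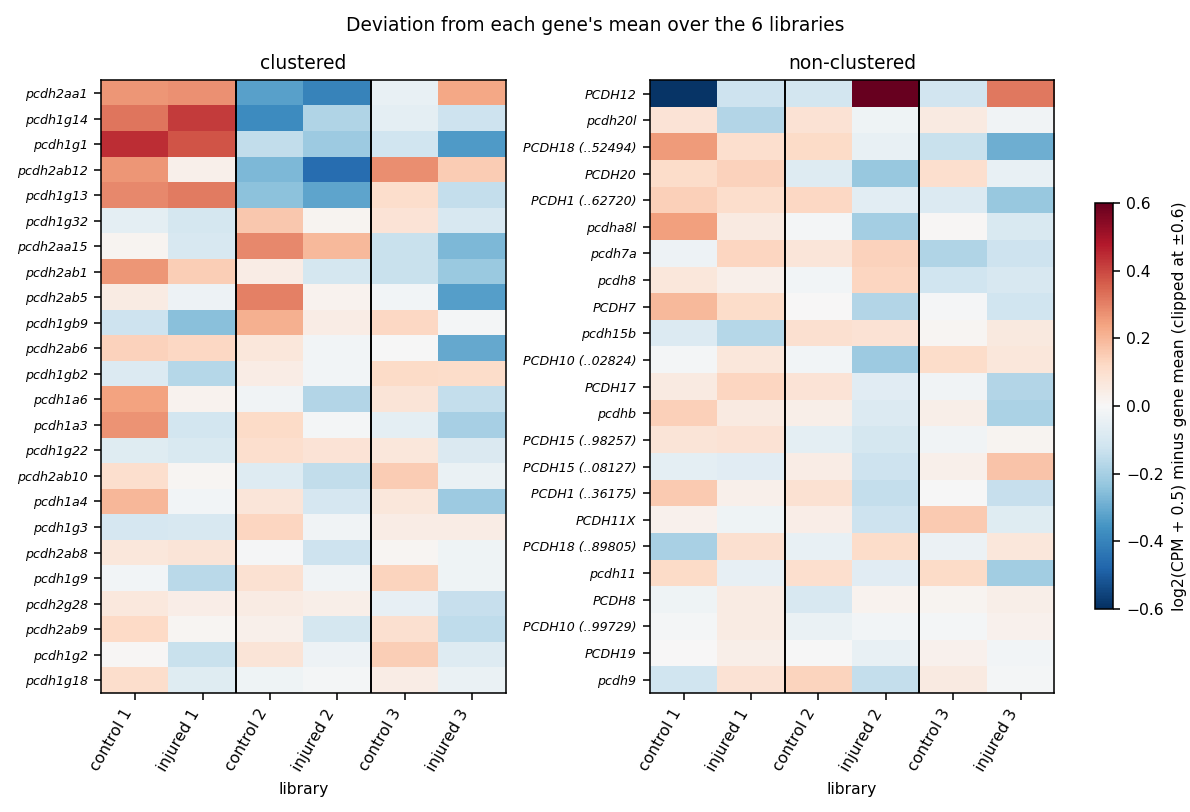
Colours give log2(CPM + 0.5) of each tested protocadherin gene (y axis) in each of the 6 libraries (x axis), as the difference from the mean of the gene over all libraries, with libraries of the same replicate number side by side. Genes are sorted by their range over replicate numbers, and in the upper rows of the clustered genes both libraries of a number mostly share their colour.

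**Figure D5:**
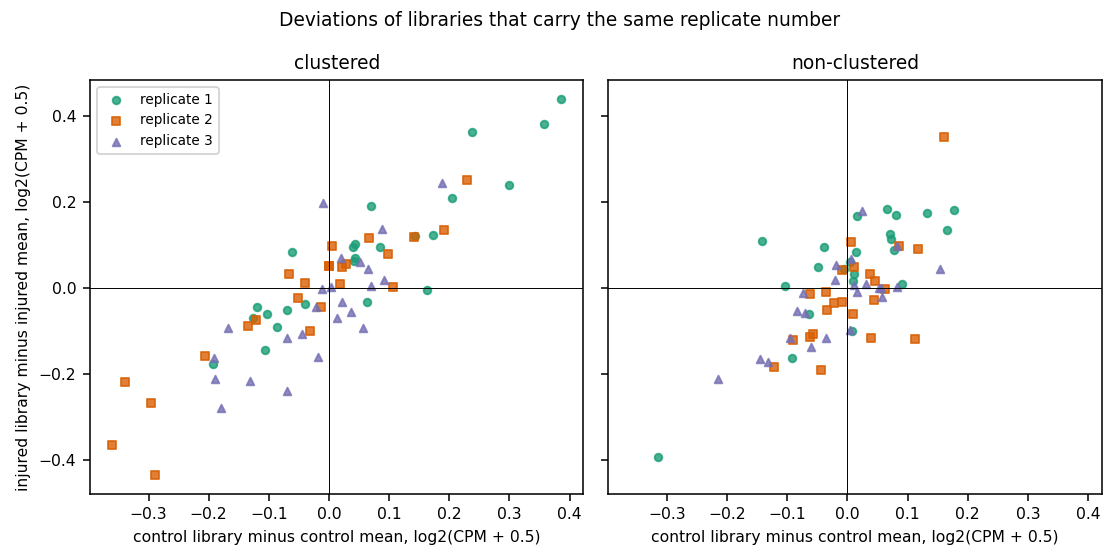
Each point is 1 tested gene at 1 replicate number, with the control library as the difference from the control mean (x axis) and the injured library as the difference from the injured mean (y axis), both in log2(CPM + 0.5). The 72 clustered points have a Pearson's r of 0.89 and the 69 non-clustered points of 0.71.

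Lists of related genes were set beside the family. Of 10 tested genes for CTCF, cohesin and silencing factors, 2 were called higher and none lower, against 11.6% of all genes called higher and 4.82% lower. *CTCF* itself, which binds the promoters of clustered genes, was at 64.2 CPM in control against 62.2 CPM in injured hemispheres (log2 fold change -0.04, adjp = 0.737), the cohesin subunit *rad21a* rose by 0.20 (adjp = 0.0156, SE 0.040), and the DNA methyltransferase *dnmt3ba* rose by 0.60 (adjp = 0.0354, SE 0.15). The median log2 fold change of the 10 genes was 0.07. With the block 3 were higher and 1 lower, against 19.9% and 16.2% of all genes.

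Of the WAVE complex and Rac genes, 4 of 10 tested were called higher and none lower, against 11.6% and 4.82% of all genes, with a median log2 fold change of 0.30. They were *NCKAP1L*, the paralogue of blood cells, at 1.14 (adjp = 7.36e-04), *WASF2* at 1.05 (adjp = 8.96e-04), *CYFIP1* at 0.81 (adjp = 0.00107) and *rac1a* at 0.50 (adjp = 0.00531). Their paralogues *WASF1*, *CYFIP2* and *NCKAP1* had log2 fold changes of -0.09, -0.19 and -0.07 and did not pass (adjp = 0.391, 0.109 and 0.247), with an adjp of 0.0033 for *CYFIP2* in the blocked model, where 5 genes were higher and 1 lower, against 19.9% and 16.2% of all genes. The microglia and leukocyte markers rose in the same libraries, and their part in the rise of the 4 genes was not tested.

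The calls in the next 4 lists stand against 16.5% of all genes, or 36.1% with the block. The list of classical cadherins had 13 tested genes, among them *CDH13* and *CDH17*, which are not classical. Of the 13, *cdh5* of endothelial junctions rose by 0.40 (adjp = 0.0490, SE 0.11) and *CDH22* fell by 0.23 (adjp = 0.0318, SE 0.057), and the median was 0.02. With the block 2 were higher and 2 lower. The neural cadherin *CDH2*, with which PCDH19 associates, was at 127 and 132 CPM and did not pass (adjp = 0.846). A list of 9 genes held large cadherins of the Fat, Dachsous and Celsr families and *FJX1*, which is not a cadherin. In it, *FAT4* was called, higher by 0.51 (adjp = 0.00280, SE 0.059), and the median was -0.009. With the block 2 were higher and 3 lower, *FJX1* among the lower (adjp = 0.00674). Of 16 cytoplasmic partners and processing enzymes, *adam10a*, whose mammalian counterpart cleaves gamma protocadherins, was called, higher by 0.55 (adjp = 0.00376, SE 0.070), the median was -0.04, and with the block 2 were higher and 4 lower. None of 8 tip link genes was called by edgeR, 1 was called by DESeq2, 1 was lower at an unadjusted *p*-value under 0.05, 1 was lower with the block, and the median was -0.0002.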

How the data were processed

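The authors used STAR for mapping to GRCz11, where a read with several loci kept the one of highest quality score, and deposited raw counts per gene from HTSeq in union mode. Tool versions, strand setting and annotation release are not given in the sources used here, so that counts of overlapping gene models are uncertain, and the constant exons that clustered protocadherins share can only be assigned where models allow it. Reads that HTSeq put on no feature (27.2% to 29.7%) or found ambiguous (1.45% to 1.53%) stayed out of library sizes.

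The main test was that of edgeR 4.0.16 in R 4.3.3 (filterByExpr, TMM, glmQLFit and glmQLFTest, condition as the only term, threshold 0.05), with DESeq2 1.42.0 as an alternative. The size of a log2 fold change over the root of its F statistic gave the SE. The edgeR fit without a block and the DESeq2 fit were first tested on simulated counts without pairing. The blocked model, the sums and the correlations were not tested in this way. For 3 against 3 libraries an exact two-sided permutation test of 1 gene cannot give a *p*-value below 0.1, and none was used. Names came from an Ensembl table (29201 of 32520 identifiers), and RefSeq of GRCz12tu served for names and neighbours only. Sequences of members are not used here.

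Over all genes tested, deviations from the condition mean correlated at 0.555, 0.436 and 0.342 between the control and the injured library of a number, against -0.393 to -0.120 between other pairs. Deviations of a gene within a condition cancel out, so the negative values follow in part from the positive ones and are not separate support for pairing. Numbers were therefore treated as pairing, which the labels do not state, in an alternative model with the replicate block. The main test left this pairing out. Other alternatives were other normalizations, filters and adjustments, each library left out, injured replicates 1 and 3 left out, and other class borders. Members, lists and tests were chosen with earlier results of these data known. Members named are those called in either model, the 5 with the most reads and the 3 with the highest and lowest log2 fold change in each class, every non-clustered gene, and those whose call changes with the block or 1 library left out. From related lists, up to 3 called genes were named by adjp, and others were chosen after their values were seen. List symbols that matched no gene or several were left out. Matches were 6 of 16 symbols for radial glia, 10 of 20 for neurons and 17 of 38 for pineal and photoreceptor cells. They were 10 of 22 for CTCF, cohesin and silencing factors, and 12 of 14 for oligodendrocytes. Counts, sums and medians of a list cover its matched symbols only.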

Additional observations from a re-analysis of the deposited data

How the results depend on the processing

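The number of clustered members called, 0 in edgeR, was 1 in DESeq2 with Benjamini-Hochberg adjustment and 5 with replicate as a block, and 0 with each library left out. The number of non-clustered members called, 1, was 2 in DESeq2, 0 with Bonferroni adjustment and 0 to 1 with each library left out. It was 2 when only genes with a mean above 100 were tested, 1 higher and 1 lower, and 9 with the replicate block, 2 higher and 7 lower. With library size alone it stayed 1, but this was *PCDH18* (ENSDARG00000089805), higher after injury, while *pcdh11* did not pass. Over all genes, the 3715 calls became 8141 with the block, including all 3715, 1281 in DESeq2 with Bonferroni adjustment, 1738 without injured replicates 1 and 3, and 1797 to 3017 with each library left out. The median log2 fold change of clustered members, -0.129, was -0.0730 with library size alone, which shifts the median of all genes by 0.06, and -0.169 to -0.114 with each library left out. That of non-clustered members, -0.0543, was 0.00137 with library size alone, -0.124 without injured replicates 1 and 3, and -0.122 to -0.0127 with each library left out. The log2 ratio of the clustered sum, -0.0601, was -0.139 without *pcdh2g28*. This was chosen after seeing the data, as was counting *pcdha8l* and *pcdhb* as clustered. Leaving out each library gave -0.0917 to -0.0101, and -0.108 to -0.0304 for the non-clustered sum.

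With each library left out, the sign turned at least once for 9 of 24 clustered and 7 of 23 non-clustered members, 0 of them called by edgeR with or without the block. The values below are those of the 27 members chosen by rule, without the non-clustered genes named by level alone. Without injured replicates 1 and 3 together, *pcdh2g28* was at 0.0205, *pcdh1g14* at -0.173 and *pcdh2aa1* at -2.19. With library size alone, *pcdh2g28* was at 0.0157, *PCDH10* (ENSDARG00000102824) at 0.00420 and *PCDH19* at 0.0382, the last also at 0.00391 among genes with a mean above 100. Leaving out each library gave -0.156 to 0.296 for *pcdh1g14*, -0.170 to 0.881 for *pcdh2aa1*, -0.0761 to 0.0163 for *pcdh2g28* and -0.104 to 0.0342 for *PCDH10* (ENSDARG00000102824). Library size alone leaves out a scaling factor, and leaving out libraries leaves fewer samples, which holds for the lost calls of *pcdh11* too. Other causes were not tested. A lone injured library was assumed to vary like the controls.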
